A study of Rattus norvegicus with 14 samples.

Results

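The peroxisomal genes Abcd3, Acaa1b and Dao were described in rat liver during orotic acid feeding. They were chosen by gene symbol in the platform annotation, which gave 4 probe sets of 4502 and 3 genes of the 2670 named on the array. The choice was made with results of these arrays in view, so their values are a description and carry no p-value. All 4 probe sets passed the filter on low signals, as did 2466 of all probe sets, and none was at the floor on any array.

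Orotic acid, an intermediate of pyrimidine synthesis, makes the liver of rats store fat when it is mixed into chow. The 14 arrays held RNA from the left lateral lobe of the liver of rats fed chow with 1% orotic acid or plain chow. The fed groups were Kyoto rats (the strain name as the labels give it) at day 1, day 3 and day 14, with 2 arrays each, and Wistar rats at day 3 with 2 arrays and at day 14 with 3 arrays. The controls were 3 Wistar arrays without orotic acid. Kyoto controls were not analysed here, so no Kyoto value below is set against an unfed Kyoto liver. Whether every array came from an animal of its own is not stated in the labels, so standard errors and p-values measure only the spread between these samples.

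Peroxisomes of the liver shorten very long and branched fatty acids by beta-oxidation and hold oxidases that release hydrogen peroxide, which catalase removes. Abcd3, the membrane protein PMP70, is an ATP-binding cassette transporter that brings long and branched acyl-CoAs and bile acid precursors into the organelle. Acaa1b is a 3-ketoacyl-CoA thiolase, the enzyme of the last step of the cycle, and in rats the B form is the one known to be induced by peroxisome proliferators that act on PPAR alpha. Dao, D-amino acid oxidase, is a flavin enzyme that deaminates D-amino acids and releases hydrogen peroxide, and is known from rat kidney, liver and brain.

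On the GRCr8 assembly all 3 genes lie on the minus strand, Abcd3 at chr2:212536791-212590379, Acaa1b at chr8:127750771-127759589 and Dao at chr12:48252900-48275964. RefSeq sequence from upstream of the start used in its promoter table is shown, on the strand of the gene, because it differs in composition between the members. That start is the end of the annotated span for Abcd3, 20 bases inside it for Acaa1b and 2664 bases inside it for Dao. Promoter activity was not measured. The stretches are chr2:212590380-212590629 for Abcd3, chr8:127759590-127759819 for Acaa1b and chr12:48273327-48273356 for Dao. The Acaa1b stretch leaves out the bases inside the gene, and for Dao, whose whole window lies inside the gene, only 30 bases around the motif match are printed. Capitals mark matches to the motifs searched, all of them as the reverse complement of the motif.
Abcd3: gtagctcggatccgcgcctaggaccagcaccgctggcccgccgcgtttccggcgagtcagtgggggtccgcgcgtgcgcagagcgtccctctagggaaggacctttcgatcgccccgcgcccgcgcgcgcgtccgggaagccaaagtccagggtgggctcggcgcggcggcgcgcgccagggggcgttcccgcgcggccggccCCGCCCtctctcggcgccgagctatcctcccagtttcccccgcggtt
Acaa1b: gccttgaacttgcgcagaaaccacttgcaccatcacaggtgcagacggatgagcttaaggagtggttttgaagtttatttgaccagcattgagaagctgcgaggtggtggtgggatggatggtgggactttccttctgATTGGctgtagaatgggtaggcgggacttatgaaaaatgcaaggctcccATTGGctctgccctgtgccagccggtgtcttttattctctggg
Dao: tgccgaagacttTGACCTggcgttccagtc
The 250 bases upstream of Abcd3 had a GC content of 75.6%, higher than in 96.9% of promoters, with 42 CpG dinucleotides. Those of Acaa1b had 52.8% GC and 5 CpG, and those of Dao 62.4% GC and 4 CpG. The motifs searched, on both strands, are named with their counts, and distances run from the start in the promoter table to the far end of the match. GGGCGG occurred once for Abcd3, 47 bases upstream, and is found in 30.5% of 33469 promoters. CCAAT occurred at 112 and 63 bases upstream of Acaa1b and is found in 34.0% of promoters. AGGTCA, the unit of nuclear receptor elements, occurred at 44 bases upstream of Dao and is found in 14.1% of promoters. Its direct repeat spaced by 1 base (DR1), the pattern that PPAR alpha binds, in its exact letters was in none of the 3 windows and in 0.0508% of all promoters. TATAAA was in none of the 3 and in 12.9% of all.

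Signals below are log2 values after quantile normalization between arrays, so 1 unit is a doubling, and levels are not set against those of another probe set. Across 1909 features tested with limma, 0 passed the Benjamini-Hochberg adjusted threshold of 0.05 in 6 of the 8 comparisons, where 85 to 200 features had an unadjusted p under 0.05. One feature passed between Kyoto days 14 and 1 and 62 between the fed strains. The array labelled Wistar control 2 stood apart from its label. Its closest array was Kyoto day 3 replicate 2 (r = 0.975 over probe sets), and its Ces2e signal, of a liver carboxylesterase, was at the floor of 6.85 as on the Kyoto arrays, against 10.09 and 10.76 on the other 2 controls. Wistar day 14 replicate 3 was most like Wistar control 3 (r = 0.976). Both of these and Kyoto day 1 replicate 1 were the only arrays with blank rows, 375, 374 and 374. Their deposited medians were 276, 276 and 277, against 233 on the other 11 arrays. Kyoto day 1 replicate 1, 1 of the 2 arrays of its group, was also the least like its closest array (r = 0.954). Whether shared processing accounts for these likenesses was not tested. No lot batch label is given for 3 arrays: Wistar control 3, Wistar day 14 replicate 3 and Wistar day 3 replicate 2. Of 8 hepatocyte markers, 7 were measured, and their summed signal was 126000 to 149000 on all arrays. In whole liver, fewer cells of a type and less RNA per cell cannot be told apart.

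**Figure D1:**
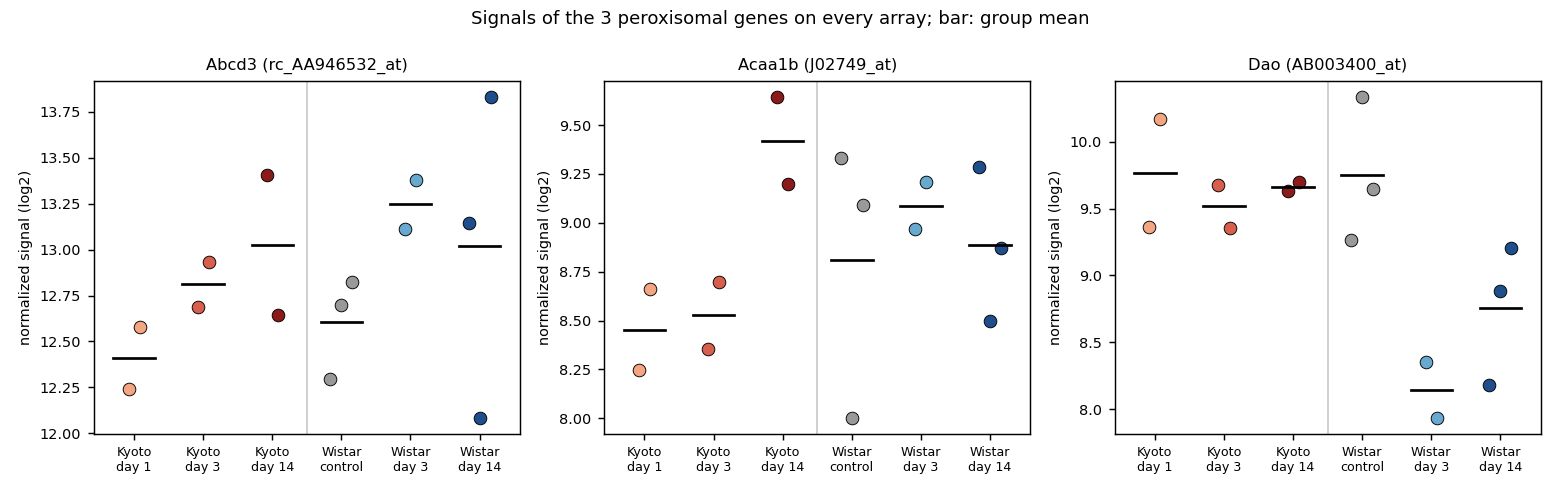
Normalized log2 signal of 1 probe set for each gene on all 14 arrays, with 1 point per array and a bar at the group mean. Dao had its lowest group means in Wistar rats at days 3 and 14, Acaa1b had its highest group mean in Kyoto rats at day 14, and the Abcd3 groups overlap at each step in the order of their means.

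Dao separated the fed strains. In Kyoto rats its normalized log2 signals were 9.36 and 10.17 at day 1, 9.67 and 9.36 at day 3, and 9.63 and 9.70 at day 14. In Wistar rats they were 9.27, 10.33 and 9.65 in controls, 8.36 and 7.94 at day 3, and 8.18, 8.88 and 9.21 at day 14. All 5 fed Wistar arrays lay below all 6 Kyoto arrays and below all 3 Wistar controls. Against controls, Wistar groups did not overlap for 34.2% of all features at day 3 and for 9.95% at day 14. The group means ran from 9.77 ± 0.57 (SD, n = 2) in Kyoto rats at day 1 through 9.75 ± 0.54 (n = 3) in Wistar controls, 9.66 ± 0.05 (n = 2) in Kyoto rats at day 14 and 9.52 ± 0.22 (n = 2) in Kyoto rats at day 3, down to 8.76 ± 0.52 (n = 3) in Wistar rats at day 14 and 8.15 ± 0.30 (n = 2) in Wistar rats at day 3. Only at the step between Kyoto day 3 and Wistar day 14, a gap of 0.76, did neighbours in this order not overlap, and the upper 4 means lay within the pooled SD of 0.45.

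Over days 3 and 14 the fed Kyoto minus fed Wistar difference of Dao was 1.14 ± 0.27 (log2, SE), or 2.20-fold. At day 3 the Kyoto mean was 9.52 against 8.15 in Wistar rats, 2.59-fold apart, and at day 14 it was 9.66 against 8.76, 1.88-fold apart. Neither pair overlapped. Of the 3 members only Dao passed the threshold in this comparison, where 3.25% of all features did. Groups did not overlap for 1 of the 3 members and for 8.85% of all features. Since the members were chosen with these values known, nothing is read from that count. The difference was 1.17 with the lot batch as a block and 1.15 on lot batch 1 alone, but it did not pass the threshold in either. Nor did it pass with all features kept, or without any single fed array of days 3 and 14 other than Wistar day 14 replicate 3, and the difference was 0.99 to 1.25 over the 11 settings in which it missed the threshold.

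Within Wistar rats, Dao at day 3 was lower than in controls by a difference of -1.60 ± 0.37, a 3.04-fold lower signal, and at day 14 by -0.99 ± 0.33. Neither passed the threshold, which 0% of all features passed in these comparisons, and with array weights the day 3 difference did. Without the array labelled Wistar control 2, the highest of the controls, the differences were -1.31 ± 0.36 at day 3 and -0.70 ± 0.33 at day 14. The groups still did not overlap, and the share of all features without overlap in that setting is not given here. Without Wistar day 14 replicate 3, the highest of the day 14 arrays, the day 14 difference was -1.21 ± 0.35. Day 14 minus day 3 was 0.61 ± 0.37 with overlapping arrays. Between the Kyoto days the differences were -0.25 ± 0.40 for day 3 minus day 1, -0.10 ± 0.40 for day 14 minus day 1 and 0.15 ± 0.40 for day 14 minus day 3, each smaller than its standard error, and each turned sign when 1 array was left out.

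Some markers of other liver cells also differed between the fed strains. The Kupffer cell and macrophage list had 2 of 7 markers measured, Clec4f and C1qb. Their summed signal was 2690 to 3540 in Kyoto rats at days 3 and 14, against 1770 to 2540 in Wistar rats on the same days, and was 2490 to 3580 in Wistar controls. Clec4f, a lectin of Kupffer cells, was the member of that list that passed the threshold between the strains (0.82, limma adjusted p = 0.0418). The 2 measured endothelial markers, of 5 listed, summed to 336 to 474 in Kyoto rats and 258 to 284 in Wistar rats at days 3 and 14. In Wistar controls the sum was 271 to 368, which overlapped the fed Wistar arrays. Only 1 of the 2, Kdr, passed the filter on low signals. The part of these cells in the Dao result was not tested.

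Acaa1b was highest in Kyoto rats at day 14. The probe set J02749_at, the one annotated to Acaa1b alone, gave normalized log2 signals of 8.25 and 8.66 in Kyoto rats at day 1, 8.36 and 8.70 at day 3, and 9.64 and 9.20 at day 14. In Wistar rats it gave 9.33, 8.0 and 9.09 in controls, 8.97 and 9.21 at day 3, and 9.28, 8.50 and 8.87 at day 14. Both Kyoto day 14 arrays lay above all 4 earlier Kyoto arrays, while the 3 Wistar groups overlapped. The group means were 9.42 ± 0.32 (SD, n = 2) in Kyoto rats at day 14, 9.09 ± 0.17 (n = 2) in Wistar rats at day 3, 8.88 ± 0.39 (n = 3) in Wistar rats at day 14, 8.81 ± 0.71 (n = 3) in Wistar controls, 8.53 ± 0.24 (n = 2) in Kyoto rats at day 3 and 8.45 ± 0.29 (n = 2) in Kyoto rats at day 1. Neighbours in this order overlapped at every step, with a pooled SD of 0.44.

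Day 14 minus day 1 in Kyoto rats was 0.97 ± 0.40 (log2, SE), or 1.95-fold, and day 14 minus day 3 was 0.89 ± 0.40, or 1.86-fold. Leaving out each array in turn gave 0.74 to 1.19 for day 14 minus day 1 and 0.67 to 1.12 for day 14 minus day 3. None of the 3 members passed the threshold in either comparison, where 0.0524% and 0% of all features did. Groups did not overlap for 2 of 3 members between days 14 and 1, against 38.1% of all features, and for 1 of 3 between days 14 and 3, against 41.8%. In Wistar rats the differences from controls were 0.28 ± 0.36 at day 3 and 0.08 ± 0.33 at day 14. Both turned negative, to -0.13 and -0.33, without the array labelled Wistar control 2, whose signal of 8.0 was the lowest of all. The Kyoto change minus the Wistar change, both day 14 minus day 3, was 1.10 ± 0.54. The strain difference over both days was -0.01 ± 0.27, made of a lower Kyoto mean at day 3 (8.53 against 9.09 in Wistar rats) and a higher one at day 14 (9.42 against 8.88).

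Markers of stellate cells and fibroblasts also differed between the Kyoto days. Of 7 listed, 6 were measured, all lower in mean at day 14 than at day 1 with a median difference of -0.93. Groups did not overlap for 5 of the 6, against 38.1% of all features. None of them passed the threshold, and their summed signal was 8870 to 8880 at day 14 against 11200 to 12800 at day 1. At day 3 the sum was 6420 to 8830, below that at day 14, although 4 of the 6 markers had a lower mean at day 14 than at day 3, with a median difference of -0.58. Their part in the Acaa1b values was not tested.

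**Figure D2:**
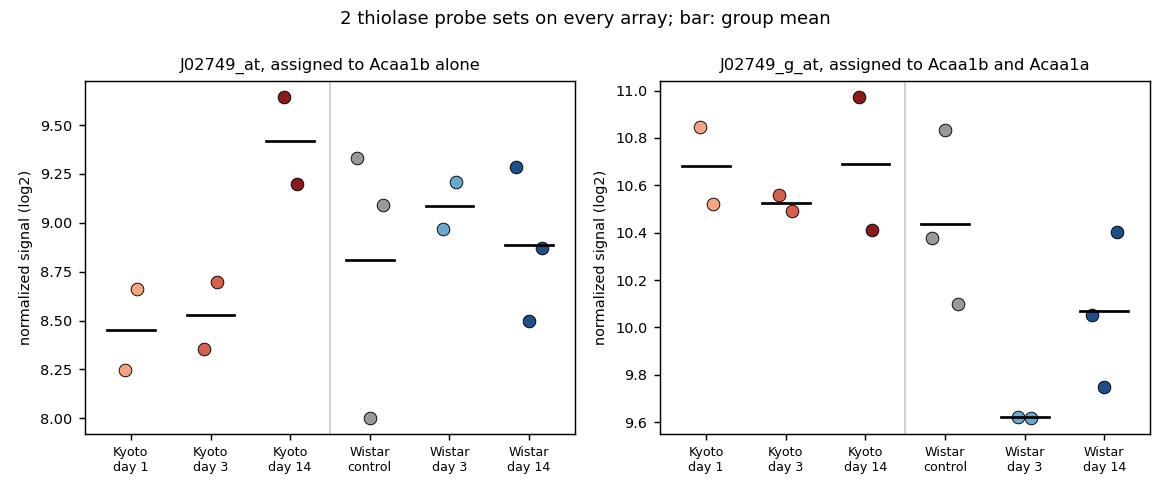
Normalized log2 signal of J02749_at, annotated to Acaa1b alone, and of J02749_g_at, annotated to Acaa1b and Acaa1a, on all 14 arrays; bars are group means. The lowest group is Kyoto day 1 on J02749_at and Wistar day 3 on J02749_g_at.

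A companion probe set, J02749_g_at, is annotated to both Acaa1b and Acaa1a, the other rat thiolase gene at chr8:127956126-127966348, and is no measure of either alone. It gave 10.85 and 10.52 in Kyoto rats at day 1, 10.56 and 10.49 at day 3, and 10.97 and 10.41 at day 14. In Wistar rats it gave 10.38, 10.83 and 10.10 in controls, 9.62 and 9.62 at day 3, and 10.05, 9.75 and 10.40 at day 14. Here all 5 fed Wistar arrays lay below the 6 Kyoto arrays. At days 3 and 14 the fed strains did not overlap for 8.85% of all features. The fed Kyoto minus fed Wistar difference was 0.76 ± 0.21 and Wistar day 3 minus control was -0.82 ± 0.28, or -0.61 ± 0.29 without the array labelled Wistar control 2. Kyoto day 14 minus day 1 was 0.01 ± 0.31. Over the 14 arrays, its signal had r = -0.24 with J02749_at and r = 0.78 with Dao, as a description over arrays that share groups and normalization. Without the array labelled Wistar control 2 the r with J02749_at was -0.09, and within groups the r with Dao was 0.26.

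For Abcd3 no order of groups stood clear of the spread. Its brighter probe set, rc_AA946532_at, gave normalized log2 signals of 12.24 and 12.58 in Kyoto rats at day 1, 12.69 and 12.93 at day 3, and 13.41 and 12.64 at day 14. In Wistar rats it gave 12.30, 12.70 and 12.82 in controls, 13.11 and 13.38 at day 3, and 13.14, 12.08 and 13.83 at day 14. The Wistar day 14 group held both the lowest and the highest of the 14 arrays. Group means ran from 13.25 ± 0.19 (SD, n = 2) in Wistar rats at day 3, 13.03 ± 0.54 (n = 2) in Kyoto rats at day 14, 13.02 ± 0.88 (n = 3) in Wistar rats at day 14, 12.81 ± 0.17 (n = 2) in Kyoto rats at day 3 and 12.61 ± 0.28 (n = 3) in Wistar controls to 12.41 ± 0.24 (n = 2) in Kyoto rats at day 1. All neighbours overlapped, and the means spanned 0.84 with a pooled SD of 0.51.

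Wistar day 3 minus control was 0.64 ± 0.38 (log2, SE) without overlap, and Kyoto day 3 minus day 1 was 0.40 ± 0.42 and day 14 minus day 1 0.61 ± 0.42, also without overlap. Groups did not overlap for 2 of 3 members in Wistar day 3 against control, Abcd3 and Dao, and for 34.2% of all features. Between Kyoto days 3 and 1 this held for 1 of 3 members and 28.1% of all features. Wistar day 14 minus control was 0.41 ± 0.34, but 0.01 without Wistar day 14 replicate 3 and 0.89 without Wistar day 14 replicate 2. The fed Kyoto minus fed Wistar difference was -0.21 ± 0.29, and on lot batch 1 alone it was 0.06 ± 0.28.

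The second Abcd3 probe set, D90038_at, gave 8.51 and 9.04 in Kyoto rats at day 1, 8.61 and 8.97 at day 3, and 10.27 and 9.22 at day 14. In Wistar rats it gave 9.34, 10.09 and 9.20 in controls, 10.56 and 9.62 at day 3, and 10.23, 8.90 and 12.95 at day 14. The last of these, Wistar day 14 replicate 3, stood far above the rest on this probe set. Its deposited signal there was 9734, which is 6.72 times the next highest array. On rc_AA946532_at the same array had 22857, which is 2.20 times the next highest. Wistar day 14 minus control on D90038_at was 1.15 ± 0.73 with this array and 0.02 ± 0.45 without it. The fed Kyoto minus fed Wistar difference was -1.13 ± 0.60 with it and -0.56 ± 0.35 without. Both probe sets had their lowest group mean in Kyoto rats at day 1. On D90038_at this was a near tie, 8.77 at day 1 against 8.79 at day 3, a difference of 0.01 ± 0.89. The r of the 2 probe sets over the 14 arrays was 0.79, or 0.67 without Wistar day 14 replicate 3.

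**Figure D3:**
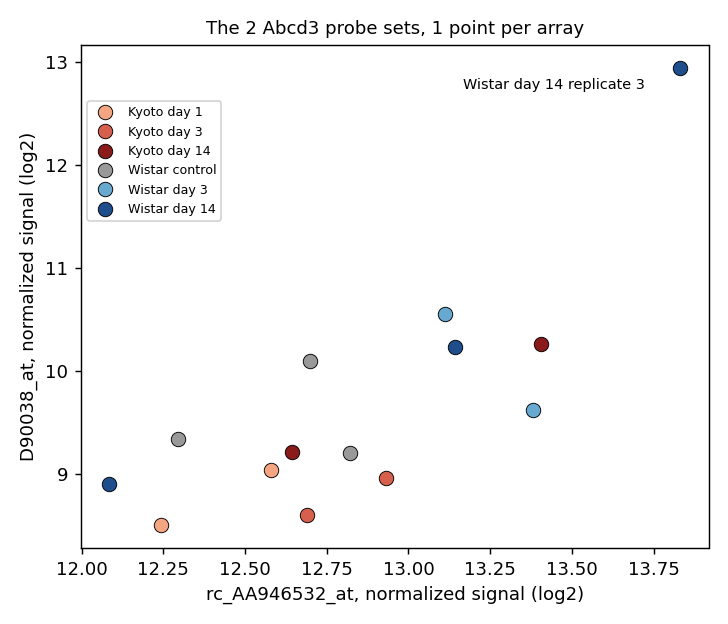
Normalized log2 signals of the 2 Abcd3 probe sets, rc_AA946532_at on the x axis and D90038_at on the y axis, with 1 point per array coloured by group. Wistar day 14 replicate 3 lies at 13.83 and 12.95, apart from the other 13 arrays.

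**Figure D4:**
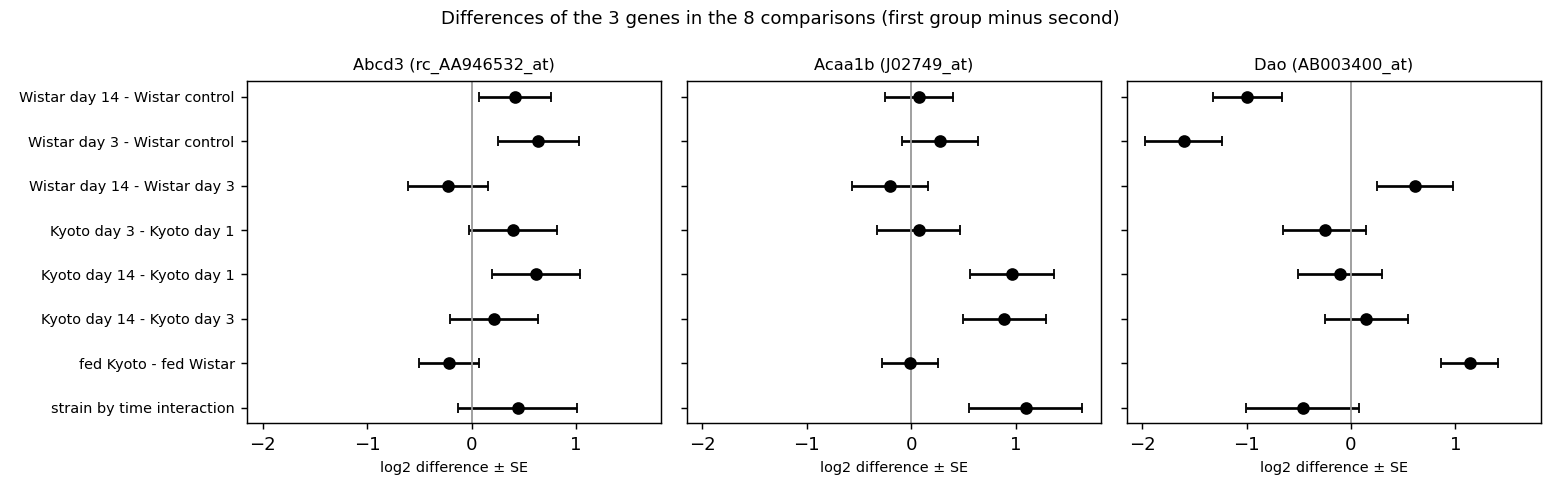
Log2 differences (points) with standard errors of the limma fit (bars) for the 3 genes in the 8 comparisons, first group minus second. Dao lies below 0 in both fed Wistar groups against control and above 0 between the fed strains, and Acaa1b lies above 0 in Kyoto day 14 against days 1 and 3.

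The other peroxisomal genes were taken from lists by role. Between the fed strains 3.25% of all features passed the threshold. Of 20 beta-oxidation genes, 11 were tested, and 1 passed it as higher in Kyoto rats and 0 as lower. By mean, 5 were higher and 6 lower, with a median difference of -0.08 against 0.03 over all features. The one that passed was Acox2, the oxidase for the CoA esters of bile acid precursors. It had 11.84 and 12.16 in Kyoto rats at day 3 and 12.18 and 12.50 at day 14, against 10.69 and 10.69 in Wistar rats at day 3 and 10.91 ± 0.19 (SD, n = 3) at day 14. The difference was 1.37 ± 0.30 (2.58-fold, limma adjusted p = 0.0253). Wistar controls had 11.30 ± 0.99 (n = 3) and ran from 10.41 to 12.37. Only the highest of them reached the range of the Kyoto arrays, whose lowest was 11.78 at day 1.

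Of 18 oxidases and other matrix enzymes, 8 were tested and 1 passed the threshold between the fed strains, as lower in Kyoto rats. By mean, 3 were higher and 5 lower, with a list median of -0.23. That gene was Ephx2, soluble epoxide hydrolase, with 7.20 ± 0.02 (SD, n = 2) and 7.31 ± 0.19 (n = 2) in Kyoto rats at days 3 and 14, against 8.93 ± 0.51 (n = 2) and 8.70 ± 0.61 (n = 3) in Wistar rats. The difference was -1.56 ± 0.32, a 2.95-fold lower signal in Kyoto rats (limma adjusted p = 0.0170). Of the 5 tested genes of D-amino acid and glycine metabolism, 4 were lower by mean and 1 higher. Among them 1 passed the threshold, as lower in Kyoto rats: Agxt2, the mitochondrial alanine-glyoxylate aminotransferase. It had 8.22 ± 0.14 (n = 2) and 8.50 ± 0.27 (n = 2) in Kyoto rats at days 3 and 14, against 10.54 ± 0.12 (n = 2) and 10.49 ± 0.34 (n = 3) in Wistar rats, a difference of -2.16 ± 0.38 (4.46-fold lower, limma adjusted p = 0.0085). None of the 5 tested peroxisomal membrane and import genes, and none of the 12 tested PPAR alpha targets outside the peroxisome, passed the threshold between the strains. Acox2, Ephx2 and Agxt2 passed it in 15, 18 and 23 of 25 alternatives. All 3 missed it with all features kept and without Kyoto day 14 replicate 1. Acox2 and Ephx2 also missed it with the lot batch as a block and without Kyoto day 14 replicate 2, either Kyoto day 3 array or Wistar day 3 replicate 1. Acox2 further missed it on lot batch 1 alone and without Wistar day 3 replicate 2 or Wistar day 14 replicate 3. Over all alternatives the differences were 1.29 to 1.45 for Acox2, -1.75 to -1.36 for Ephx2 and -2.25 to -2.06 for Agxt2.

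No listed gene passed the threshold in the other 7 comparisons. Between Kyoto days 14 and 1, 10 of the 11 beta-oxidation genes had a higher mean, with a median difference of 0.35 against -0.0019 over all features. Between days 14 and 3 it was 9 of 11 with a median of 0.34 against -0.02. Acaa1b, with 0.97 and 0.89, lay above both medians. Groups did not overlap for 5 of the 11 between days 14 and 1, against 38.1% of all features. Between days 14 and 3 this held for 7 of 11, against 41.8%. The genes of the smallest p between days 14 and 1 were Scp2, whose product holds a thiolase for branched chains, at 0.79 ± 0.35, and Hsd17b4, the D-bifunctional enzyme, at 0.73 ± 0.34. The 2 day 1 arrays lay far apart on both, at 9.22 and 10.29 for Scp2 and at 10.09 and 11.53 for Hsd17b4. At day 14 Hsd17b4 had 11.53 and 11.54. The 5 tested genes of D-amino acid and glycine metabolism all had a higher mean in fed Wistar rats than in controls. Their medians were 0.52 at day 3 and 0.48 at day 14, while Dao had -1.60 and -0.99. For Agxt2 the higher mean leaned on the lowest control. Its 3 controls ran from 8.64 to 10.69 (SD 1.18), and all but the lowest lay above both day 3 arrays (10.46 and 10.63). With the lowest control set aside, the control mean of Agxt2 lay above its fed Wistar means at days 3 and 14. The sign of both Agxt2 differences therefore rested on that array. Values of these 5 genes without the array labelled Wistar control 2 are not given here. In Wistar rats 6 of the 11 beta-oxidation genes had a higher mean at day 3 than in controls, with a median of 0.01, and 4 of 11 at day 14, with a median of -0.14.

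**Figure D5:**
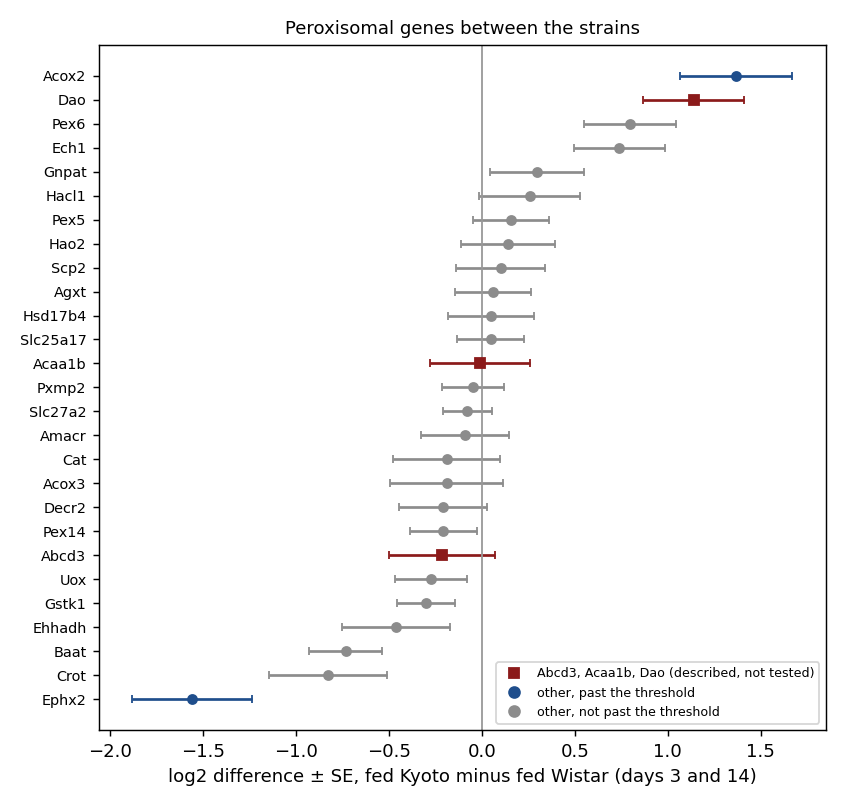
Log2 difference with its standard error, fed Kyoto minus fed Wistar rats over days 3 and 14, for each tested gene of the 3 peroxisomal lists and for Abcd3, Acaa1b and Dao (squares). Acox2 and Dao lie farthest to the right and Ephx2 farthest to the left, while Acaa1b and Abcd3 lie near 0.

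Across the 14 arrays, the tested genes whose normalized signals were most like each member were ranked by Pearson r among 1501 genes, as a description of arrays that share groups and scaling. For Dao they were Gsto1 (0.91), Kyat1 (0.89), Rab13 (0.81), Igfals (0.81) and Ptprs (0.81). Within groups the r of these 5 genes with Dao was 0.87, 0.66, 0.27, 0.42 and 0.36, in the same order. For Acaa1b they were Sdhaf2 (0.88), Cmtm6 (0.75), Eif5 (0.73), Gsta3 (0.70) and Slc27a2 (0.70), the last a peroxisomal acyl-CoA synthetase that is on the beta-oxidation list. For Abcd3 they were Acadsb (0.82), Lgals8 (0.80), Dnaja3 (0.78), Prkar1a (0.78) and Galnt1 (0.74). No member was on another's list. Between members r was -0.40 for Dao and Acaa1b, -0.32 for Dao and Abcd3, and 0.45 for Acaa1b and Abcd3. Within groups the r of these pairs was -0.62, 0.20 and 0.29, so the sign turned for Dao and Abcd3. Without the array labelled Wistar control 2 the r of Dao and Acaa1b was -0.23.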

How the data were processed

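Liver RNA of 14 rat samples was hybridised to 1-colour Affymetrix arrays. The authors deposited 1 linear intensity per probe set and array, and the submitters' processing notes name MAS5. Its version and scaling target: not given in the sources used here. No detection calls entered the work. Groups came from the source labels, and replicate numbers only name arrays. The 24 control probe sets and 375 rows blank on at least 1 array were left out. Signals were log2 transformed, quantile normalized and floored at the 25th percentile (115, or 6.85 on the log2 scale). The brightest probe set stood for each gene, and the upper 60% of 3181 features by mean were tested. A single linear model with a mean for each of the 6 groups left 8 residual degrees of freedom. It was fitted with limma 3.58.1 in R 4.3.3 (lmFit, eBayes with trend), with Benjamini-Hochberg adjustment over all features. The code was run on simulated data of independent noise. These held no batch, outlying or mislabelled array, so that run says nothing of such arrays here. Values of D90038_at and J02749_g_at come from a fit with every probe set its own feature. Symbols are those of the platform annotation: 3700 probe sets had 1 symbol, 229 several and 573 none, and 3688 gene IDs matched RefSeq on GRCr8. The number of arrays limits the precision.

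The members and gene lists were chosen with earlier results of these data known. Beyond the members, up to 4 genes past the threshold per list and comparison were named, or up to 2 with the smallest p, and the 5 genes most correlated with each member. Of the unpassed list genes only those of Kyoto day 14 against day 1 in the beta-oxidation list are given. The settings varied were the scaling, the floor, the filter, the probe set rule, blocks for lot batch and for arrays with blank rows, fewer arrays or groups, array weights, and leaving out each array.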

Additional observations from a re-analysis of the deposited data

How the results depend on the processing

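All 24 differences of the 3 members, under 25 alternatives each, moved by less than 1 pooled SD. Much of this was fixed in advance, so it is no measure of robustness. Keeping all features or fitting only the groups compared leaves each difference as it was, and the pooled SD includes each array left out. The difference of Dao between the fed strains, the 1 that had passed the threshold, kept its sign. Of all 24, 13 kept their sign, and the other 11, of 0.44 or less in size, turned sign under at least 1 alternative. Beside those given with the results, Abcd3 turned to 0.25 for Wistar day 14 minus day 3 and to -0.03 for the interaction, both without Wistar day 14 replicate 2, and to -0.17 for Kyoto day 14 minus day 3 without Kyoto day 14 replicate 1. Acaa1b turned to -0.13 for Kyoto day 3 minus day 1 without Kyoto day 1 replicate 1 and to 0.10 between the fed strains without Kyoto day 14 replicate 2. Without Kyoto day 1 replicate 2, Dao turned to 0.15 for Kyoto day 3 minus day 1 and to 0.30 for day 14 minus day 1, and without Kyoto day 3 replicate 2 to -0.01 for day 14 minus day 3. Dao passed the threshold between the fed strains in 14 of the 25, with a difference of 0.99 to 1.25 when each array was left out. Since Dao was chosen with these values known, nothing is read from that tally. On lot batch 1 alone, D90038_at gave -0.15 for Wistar day 14 minus control, -0.99 for day 14 minus day 3 and 1.95 for the strain by time interaction, and J02749_g_at gave -0.71 for Wistar day 14 minus control. Counts of features past the threshold depended on the setting, and the cause was not tested. Between the fed strains the count of 62 became 1 with all features kept, 21 with the lot batch as a block, 20 on lot batch 1 alone, 103 on the groups compared and 135 with array weights, and 11 to 88 when each array was left out. The 3 listed genes became 0 with all features kept, 1 with the lot batch as a block, 7 on the groups compared and 6 with array weights, and 0 to 5 when each array was left out. For Kyoto day 14 against day 1 the count of 1 became 3 with all features, 4 with every probe set, and 0 on lot batch 1, on the groups compared and with array weights. It was 0 to 161 when each array was left out, and 161 without Kyoto day 1 replicate 2, with 0 to 5 listed genes. Kyoto day 3 against day 1 gave 2 with all features and 0 to 75 when each array was left out, 75 again without Kyoto day 1 replicate 2, with 0 to 1 listed genes. Kyoto day 14 against day 3 gave 1 with all features kept and 1 with array weights, and 0 to 1 when each array was left out. Wistar day 14 against control gave 3 on lot batch 1 alone and 1 with array weights, and 0 to 7 when each array was left out, 7 without Wistar day 14 replicate 3. Wistar day 3 against control gave 1 with arrays scaled to 1 trimmed mean, 1 with every probe set, 5 on the groups compared and 19 with array weights, and 0 to 6 when each array was left out. No paired analysis was possible because the replicate numbers only name arrays in accession order. Groups of 2 or 3 arrays limit every comparison.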
